A study of Homo sapiens with 6 samples.

Results

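Copper enters human cells through the transporter SLC31A1, to which SLC31A2 is related. It is carried by the cytosolic chaperone ATOX1 and leaves through the pumps ATP7A and ATP7B. Cisplatin has been linked to the same proteins and to the volume-regulated anion channel made of LRRC8A, LRRC8B, LRRC8C, LRRC8D and LRRC8E. Of these 10 genes, the 1 that the platform annotation used here paired with a probe set was ATOX1, and the other 9 were not analysed here. Its level was therefore described among the 14812 genes measured, with the genes that work beside it in copper handling.

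UM-Cis is a cisplatin-resistant derivative of the oral squamous carcinoma line UMSCC1, selected by raising cisplatin stepwise between 1 and 5 μg/mL over about 12 months. Both lines were grown in DMEM with 10% serum, and RNA was taken from cells kept without cisplatin. Each line was hybridised to 3 Human Gene 2.0 ST arrays, named unnumbered, 1 and 2, and the values are log2 signals. The comparison rests on 1 parental and 1 derived line, so the selection and other differences between the lines cannot be told apart. Deviations from the line means correlated between the unnumbered arrays of the lines (r = 0.505). Between an unnumbered array and the numbered arrays of the other line r was −0.327 to −0.433. Deviations cancel out within a line, so these opposite signs follow in part from the centring and are not separate evidence. Because the unnumbered arrays correlated, list counts and the ATOX1 difference are also given on the numbered arrays alone.

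ATOX1 takes copper from the importer side and hands it to the export pumps at the trans-Golgi network. Its metal-binding cysteines also bind platinum in vitro. Metallothioneins are small cysteine-rich proteins that buffer copper and zinc, and their genes are switched on by the factor MTF1 through short metal-response words in the promoter.

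The promoters of ATOX1 and of the metallothionein gene MT2A are shown to set their metal-response words side by side. The sequences are from RefSeq, build GRCh38.p14, 300 bases around the start of the gene, read on its own strand. Capitals mark GGGCGG (the GC box bound by SP1) and the metal words TGCACNC and TGCGCNC, searched on both strands. The ATOX1 window is chr5:151758582-151758881 on the minus strand and the MT2A window is chr16:56608334-56608633 on the plus strand.
ATOX1: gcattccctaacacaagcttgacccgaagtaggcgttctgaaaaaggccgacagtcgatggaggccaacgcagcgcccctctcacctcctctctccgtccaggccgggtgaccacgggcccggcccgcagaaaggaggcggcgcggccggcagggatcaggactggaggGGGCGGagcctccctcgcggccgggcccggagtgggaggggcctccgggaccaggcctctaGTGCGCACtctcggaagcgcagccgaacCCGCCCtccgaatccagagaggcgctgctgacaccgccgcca
MT2A: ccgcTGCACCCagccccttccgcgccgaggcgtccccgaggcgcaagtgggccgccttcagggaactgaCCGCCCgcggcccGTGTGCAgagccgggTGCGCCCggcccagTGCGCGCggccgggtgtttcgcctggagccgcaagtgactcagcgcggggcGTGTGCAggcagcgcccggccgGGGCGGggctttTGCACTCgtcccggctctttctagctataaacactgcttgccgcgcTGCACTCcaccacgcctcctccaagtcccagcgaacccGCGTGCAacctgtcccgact
The ATOX1 promoter held 2 GC boxes and 2 matches to TGCGCNC, which overlap on opposite strands in the single stretch GTGCGCAC. The MT2A promoter held 2 GC boxes and 8 metal words. Among 35116 promoters, 45.0% held GGGCGG, 20.0% TGCGCNC, 12.1% TGCACNC and 29.6% either metal word. All 4 metallothionein promoters searched held 3 to 8 metal words, and 12 of 33 promoters of 20 other copper genes held any. Some of these genes had several promoters, whose windows can overlap. A match is a description of letters, not a site.

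ATOX1 was read by a single probe set (17001946). Its signal was 6.68, 6.45 and 6.25 on UM-Cis arrays unnumbered, 1 and 2, against 6.26, 6.22 and 6.13 on the UMSCC1 arrays of the same names. The unnumbered array was the highest in each line and the groups overlapped, since UM-Cis array 2 lay below the unnumbered UMSCC1 array. The means were 6.46 ± 0.22 in UM-Cis and 6.20 ± 0.07 in UMSCC1 (SD, n = 3 each). The log2 difference was 0.26 (SE 0.15, 95% interval −0.08 to 0.60), a 1.20-fold level with an interval of 0.945 to 1.51, and it did not pass the test (limma, adjusted p = 0.338 over all genes). An exact two-sided permutation test gave p = 0.2, and 0.1 is the smallest p that 3 arrays against 3 allow. The upper bound of the interval lay below 2-fold. Without the unnumbered UM-Cis array the difference was 0.15, and with control genes set to an equal median it was 0.49, neither of which passed (adjusted p = 0.572 and 0.257). Of 15 control genes listed, 6 were measured. They had a median difference of −0.30 themselves, and setting them equal raised the median difference of all genes by 0.24. On the numbered arrays alone the ATOX1 difference was 0.18 (adjusted p = 0.398). Across all genes, 5.91% were called higher in UM-Cis, 4.6% lower, and 4.15% passed 2-fold with an unadjusted p under 0.05. None of these calls included ATOX1. Its mean signal exceeded that of 61.1% of genes and its difference was larger in size than that of 58.6%. Nothing in the labels states that the triplicates are separate cultures, so the p-values cover array-to-array spread, which may be technical. In bulk RNA of this kind, a change in how many cells express a gene and a change in RNA per cell cannot be told apart.

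**Figure D1:**
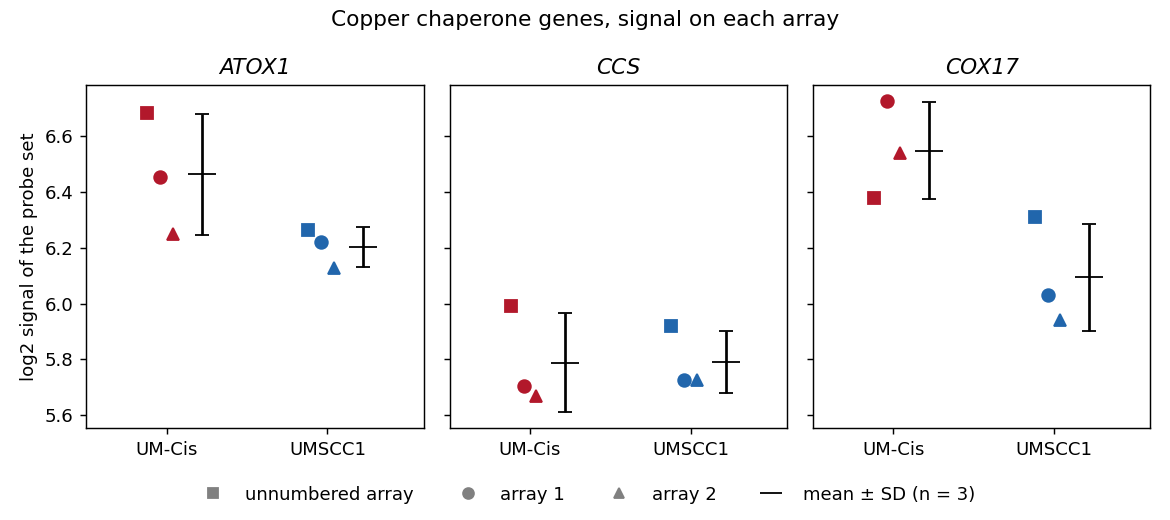
Log2 signal of ATOX1, CCS and COX17 on each array, UM-Cis left of UMSCC1, with array names as symbols and mean ± SD (n = 3) as bars. ATOX1 overlaps between the lines, CCS sits at the same mean in both, and COX17 does not overlap.

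The plot of chaperone signals sets ATOX1 beside CCS, which delivers copper to superoxide dismutase, and COX17, which carries it to mitochondria. CCS averaged 5.79 ± 0.18 in UM-Cis and 5.79 ± 0.11 in UMSCC1 (SD, n = 3 each), a difference of −0.00 (interval −0.33 to 0.33, adjusted p = 0.995). COX17, named after its values were seen, averaged 6.55 ± 0.17 in UM-Cis and 6.09 ± 0.19 in UMSCC1, with no overlap between the groups. Its difference was 0.45 (interval 0.09 to 0.81, adjusted p = 0.113). It passed on the numbered arrays alone (0.65, adjusted p = 0.019) and with array weights (0.58, 0.011). Within arrays the log2 ratio of ATOX1 to CCS was 0.67 ± 0.09 in UM-Cis and 0.41 ± 0.07 in UMSCC1. Its groups did not overlap (exact p = 0.1, adjusted over 2 ratios 0.2). The ratio of ATOX1 to COX17 was −0.09 ± 0.34 in UM-Cis and 0.11 ± 0.13 in UMSCC1 (exact p = 0.4). The unnumbered UM-Cis array, at 0.31, stood above all the others, while UM-Cis arrays 1 and 2 had −0.27 and −0.29, against −0.04, 0.19 and 0.19 on UMSCC1 arrays unnumbered, 1 and 2. On the numbered arrays alone the difference was −0.47, against −0.20 on all arrays. Both ratios were chosen after seeing the data.

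Among 31 measured copper handling genes (of 39 listed), 4 rose in UM-Cis, which is 12.9%, beside 5.91% of all genes, and 0 fell. On the numbered arrays alone, a fit added after seeing the data, 8 rose and 4 fell, but that fit called 9.36% of all genes higher and 8.78% lower. The median difference was −0.04, the same as for all genes (−0.04). The 4 were STEAP4, LIAS, MT1F and COX11. STEAP4, a reductase of iron and copper, had signals of 6.05, 5.21 and 5.19 on UM-Cis arrays and 3.74, 4.06 and 3.89 on UMSCC1 arrays. The groups did not overlap, the unnumbered UM-Cis array was the highest, and the difference was 1.59 (SE 0.24, adjusted p = 0.0054). LIAS, the enzyme that makes the lipoyl groups to which copper can bind, had 7.59, 7.56 and 7.64 in UM-Cis and 6.66, 6.64 and 6.61 in UMSCC1. The groups did not overlap and the arrays of each line lay close together (difference 0.96, SE 0.12, adjusted p = 0.0022). MT1F had 7.48, 7.31 and 7.42 in UM-Cis and 6.92, 6.74 and 6.57 in UMSCC1 (difference 0.66, adjusted p = 0.021). COX11, which places copper into cytochrome c oxidase, had 7.85, 8.04 and 8.01 in UM-Cis and 7.07, 7.50 and 7.41 in UMSCC1 (difference 0.64, adjusted p = 0.035). The MT1F call was lost in 4 of 6 fits that left out an array and the COX11 call in 5 of 6. Those 6 fits called 762 to 1577 of all genes, against 1557 with all 6 arrays. With the methods' t-test, adjusted here over all genes, p was 0.0103 for LIAS, 0.079 for STEAP4, 0.067 for MT1F and 0.106 for COX11. With control genes set to an equal median COX11 had an adjusted p of 0.083. At 2-fold or more with an unadjusted limma p under 0.05, 1 of the 31 passed, STEAP4 (3.01-fold), beside 4.15% of all genes.

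**Figure D2:**
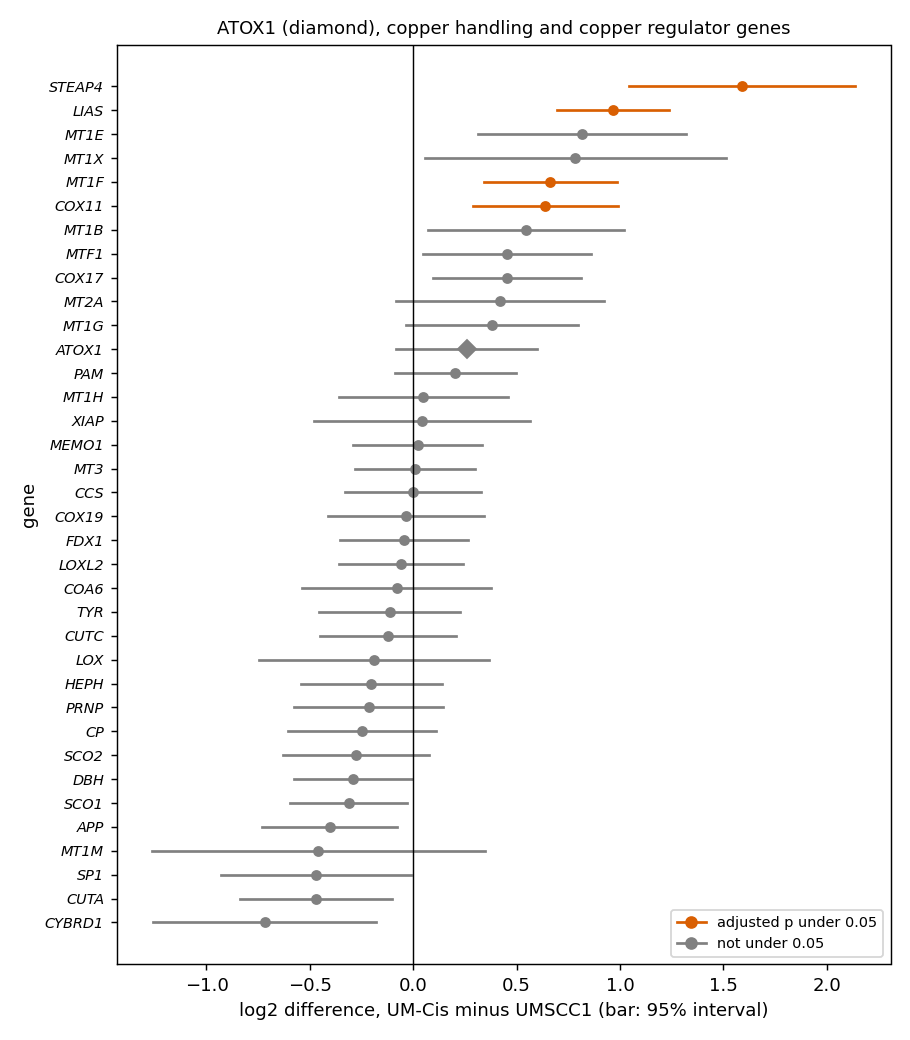
Log2 difference, UM-Cis minus UMSCC1, with its 95% interval for ATOX1 (diamond), the copper handling genes and the regulators. STEAP4, LIAS, MT1F and COX11 pass (orange), and ATOX1 has an interval that crosses 0.

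Of 9 metallothioneins measured, 8 averaged higher in UM-Cis, as did 6647 of all 14812 genes, and the median difference was 0.42. Named after their values were seen, the 8 include MT3 (0.01, and −0.03 on the numbered arrays alone). They also include the dim MT1H, at means of 2.40 in UM-Cis and 2.35 in UMSCC1. MT1M, named after its values were seen, averaged lower, at 3.25 in UM-Cis and 3.71 in UMSCC1 (adjusted p = 0.479). It was dim too, with its UM-Cis mean below the 25th percentile of probe set means (3.55) and its UMSCC1 mean a little above. MT1F passed the test, beside 5.91% of all genes called higher. When the array name shared by the lines was fitted as a block, 3 passed, beside 9.79% of all genes called higher. Named after their values were seen, MT1E had a difference of 0.82 (adjusted p = 0.051, block 0.0095) and MT1B was the other that passed with the block (0.044). The MT1B probe set was dim, at means of 2.65 in UM-Cis and 2.11 in UMSCC1, below the 25th percentile of probe set means (3.55), so its difference is not given. MT1X, also named after its values were seen, had 8.86, 9.98 and 9.85 in UM-Cis and 9.25, 8.53 and 8.57 in UMSCC1. Its unnumbered arrays ran the other way from the numbered ones, and the difference was 0.78 on all arrays (adjusted p = 0.172) and 1.37 on the numbered arrays alone (0.0014). Members of this family are nearly identical, so a probe set may read several. MT2A, also named after its values were seen, averaged 9.86 ± 0.19 in UM-Cis and 9.44 ± 0.42 in UMSCC1 (adjusted p = 0.288). CYBRD1, a reductase of iron and copper also named after its values were seen, had a difference of −0.72 (adjusted p = 0.097) that passed with the block (0.013), on the numbered arrays alone (−0.64, 0.022) and with array weights (−0.67, 0.020).

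None of the 4 measured regulators passed. MTF1, the metal-sensing factor, averaged 8.97 ± 0.30 in UM-Cis and 8.52 ± 0.13 in UMSCC1 (adjusted p = 0.156). SP1, which controls the importer SLC31A1, averaged 7.89 ± 0.38 in UM-Cis and 8.36 ± 0.13 in UMSCC1 (adjusted p = 0.194), and passed on the numbered arrays alone (−0.60, 0.046). With array weights both passed (MTF1 0.033, SP1 0.039), and with the block neither did (MTF1 0.059, SP1 0.060).

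The copper pumps cycle through endosomes, and the COMMD-CCDC22-CCDC93 complex, the retriever and the WASH complex return them. The endosomal retrieval list also held genes outside those complexes, such as VPS26B, VPS35 and SNX27. Of 26 genes of the list measured (of 32 listed), 3 rose (11.5%, beside 5.91% of all genes). Another 2 fell (7.69%, beside 4.6% of all genes) and 21 did not pass. With the block 5 rose and 4 fell, in a fit that called 9.79% of all genes higher and 8.4% lower. On the numbered arrays alone 4 rose and 5 fell, beside 9.36% and 8.78% of all genes. The median difference was 0.06. CCDC93, a scaffold of the COMMD complex, had 8.43, 8.84 and 8.93 in UM-Cis and 7.48, 7.68 and 7.85 in UMSCC1. The groups did not overlap (difference 1.07, SE 0.17, adjusted p = 0.0072). VPS35L, a subunit of the retriever, had 5.89, 5.68 and 5.50 in UM-Cis and 7.40, 6.69 and 6.74 in UMSCC1. It fell to a mean of 5.69 in UM-Cis, against 6.94 in UMSCC1 (difference −1.25, adjusted p = 0.0087), without overlap. COMMD3 (0.56, adjusted p = 0.021) and COMMD8 (0.72, adjusted p = 0.038) also rose, and WASHC4, named after its values were seen, fell (−0.47, adjusted p = 0.045). These 3 calls were each lost in 4 or 5 of 6 fits that left out an array. With control genes set to an equal median, adjusted p was 0.713 for WASHC4 and 0.074 for COMMD3. With the methods' t-test it was 0.069 for CCDC93, 0.091 for VPS35L and 0.142 for COMMD8. With the block, and named after their values were seen, COMMD1 (0.70, adjusted p = 0.062, block 0.019) and WASHC3 (0.55, 0.061, block 0.040) were also higher, and COMMD7 (−0.66, 0.052, block 0.014) and VPS26B (−0.52, 0.138, block 0.032) lower.

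**Figure D3:**
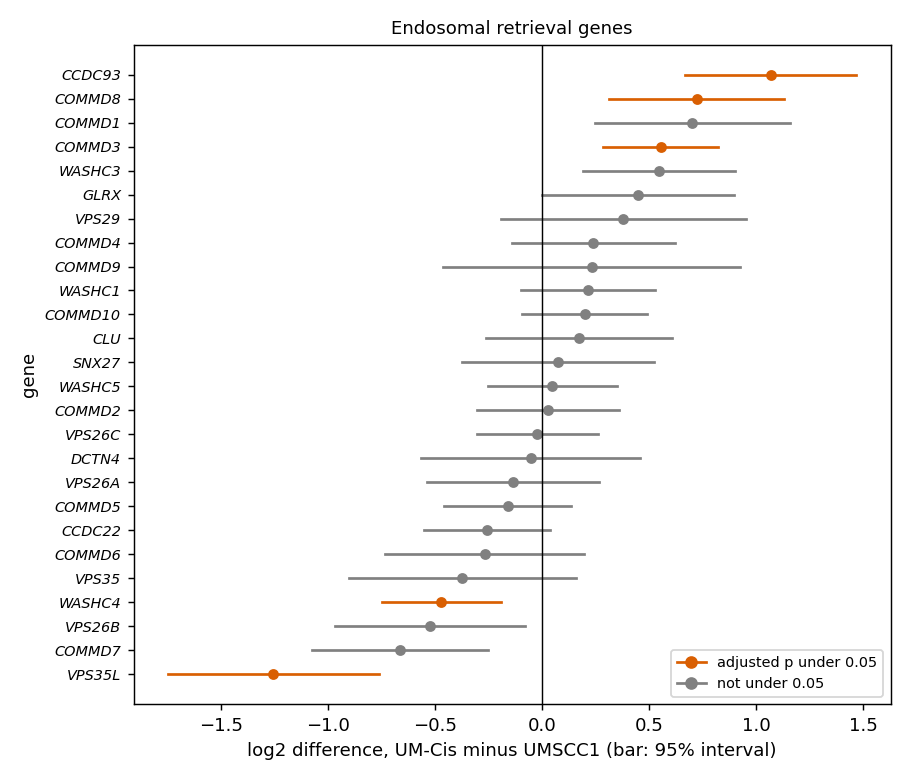
Log2 difference, UM-Cis minus UMSCC1, with its 95% interval for the 26 endosomal retrieval genes. CCDC93 lies at the top and VPS35L at the bottom, and 21 genes do not pass.

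Of 19 other platinum transporter genes listed, 3 were measured, and TMEM205, AQP2 and AQP9 did not pass. TMEM205, a membrane protein reported in cisplatin-resistant cells, averaged 7.48 ± 0.47 in UM-Cis and 7.05 ± 0.42 in UMSCC1 (adjusted p = 0.396, block 0.049). Of 13 cell volume genes measured (of 26 listed), 0 rose and 1 fell (7.69%, beside 4.6% of all genes). On the numbered arrays alone 3 fell, where 8.78% of all genes were called lower. STK39, a kinase of the WNK pathway that controls ion transport, had 8.18, 7.81 and 8.09 in UM-Cis and 8.92, 9.27 and 9.04 in UMSCC1. All UM-Cis arrays were lower (difference −1.05, adjusted p = 0.0052). Adjusted p for STK39 was 0.087 with control genes set to an equal median and 0.053 with the methods' t-test. With the block, which called 8.4% of all genes lower, 4 fell, adding, after their values were seen, WNK1, TTYH3 and AQP3.

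The 5 measured genes on each side of ATOX1 had a median difference of −0.08, and 1 of 10 fell, beside 4.6% of all genes. FAT2, an atypical cadherin and the nearest measured gene on one side, averaged 4.39 in UM-Cis and 5.98 in UMSCC1 (adjusted p = 0.00085). Genes that were not measured may lie between. G3BP1, the nearest measured gene on the other side, had a difference of −0.26 (adjusted p = 0.498).

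**Figure D4:**
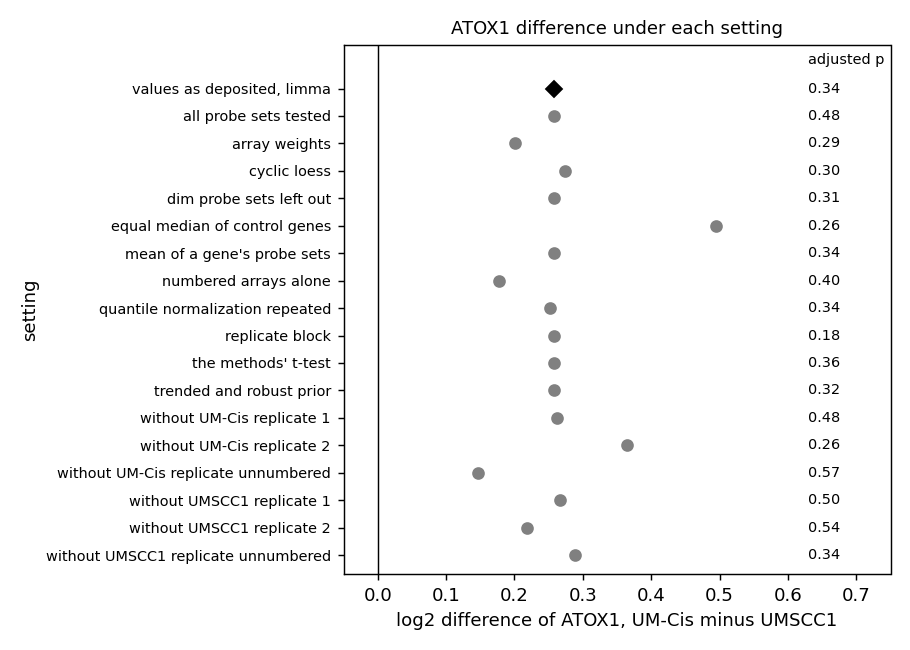
Log2 difference of ATOX1, UM-Cis minus UMSCC1, under the deposited values (diamond) and 17 alternative settings, with each adjusted p at the right. All differences are above 0 and none passes.

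In the plot of ATOX1 by setting, the difference ran between 0.15 and 0.49 and adjusted p between 0.179 and 0.572. Array medians lay between 4.74 and 4.82. Of 7 measured squamous markers 0 rose and 2 fell, KRT5 (−1.94) and KRT13 (−2.05), beside 4.6% of all genes. With the block 3 fell, beside 8.4% of all genes, KRT14 included (block adjusted p = 0.0080). On the numbered arrays alone 4 fell, beside 8.78% of all genes, while KRT5 did not pass the methods' t-test (0.112). EPCAM averaged 10.3 in UM-Cis and 10.6 in UMSCC1 and SFN 11.1 in UM-Cis and 11.3 in UMSCC1. Of 12 markers of other cell types 5 were measured, at means of 3.35 to 5.99 in UM-Cis and 3.57 to 6.30 in UMSCC1. Of these 5, 1 fell (CD14, adjusted p = 0.049), beside 4.6% of all genes. The CD14 call was lost in 6 of 6 fits that left out an array, with the methods' t-test (0.093) and with control genes set to an equal median (0.595). Their part in the differences above was not tested.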

How the data were processed

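The authors deposited log2 signals of 44629 probe sets on 6 arrays, made with RMA per the submitters' processing notes and with quantile normalization per the methods. These log2 values were used as deposited. Of the probe sets, 15835 had 1 gene symbol and 28794 had none, symbols were updated through RefSeq, and the brightest probe set of each gene was kept, giving 14812 genes. Lines were compared with limma 3.58.1 in R 4.3.3 (lmFit, eBayes, two-sided), with Benjamini-Hochberg adjustment over all genes and a threshold of 0.05. Ratios used an exact permutation test in scipy 1.17.1. The members and lists were chosen with earlier results of these data known. Genes named were ATOX1, up to 4 genes of smallest adjusted p per list, a few set regulators, and the nearest measured neighbours. Others are said to be named after their values were seen, apart from genes of the marker and control lists. Deviations from the line means correlated between same-named arrays (r = 0.505 for the unnumbered, 0.237 for 1 and 0.357 for 2) but about as well between UM-Cis 1 and UMSCC1 2 (0.265) and UM-Cis 2 and UMSCC1 1 (0.233). The unnumbered arrays thus stood apart, labels 1 and 2 were not told apart, and no source states a shared batch. The label was fitted as a block as an alternative. No gene was compared by likeness, since ATOX1 did not pass. The alternatives were the methods' t-test, other priors and array weights, repeated quantile normalization, cyclic loess, control genes brought to one median, dim probe sets removed, probe sets averaged per gene or each tested alone, and each array left out in turn. The numbered arrays alone and the list counts under each alternative were added after seeing the data. The p-values of the t-test were adjusted over all genes, whereas the paper selected genes at 2-fold or more with p under 0.05. The limma fit was tested on simulated data.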

Additional observations from a re-analysis of the deposited data

How the results depend on the processing

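ATOX1 kept a positive difference in 17 of 17 alternatives (0.15 to 0.49, adjusted p 0.179 to 0.572), and 0 passed. Several of these could not change the difference, only its p. They are the t-test, the other prior, the block and the probe set settings, since ATOX1 had a single probe set. Their sign is therefore not separate evidence. Leaving out 1 array gave 0.15 to 0.36. Fitting the array label as a block gave ATOX1 an adjusted p of 0.179, with no change of call. The block changed the list counts to 6 higher and 1 lower copper handling genes, 5 higher and 4 lower retrieval genes, 1 higher platinum transporter and 4 lower volume genes. Across all genes 1450 were higher and 1244 lower with the block, against 876 and 681 without it, and it changed no other call of a gene named here beyond those given beside their values. The counts under other settings were chosen after seeing the data. With all probe sets tested, 2 copper handling genes were higher, and 1 retrieval gene was higher and 1 lower. That fit called 3.78% of all genes higher and 2.8% lower. Array weights called 10.8% of all genes higher and 10.2% lower, against 5.91% and 4.6% as reported. With them 8 copper handling genes were higher and 4 lower, 1 regulator was higher and 1 lower, 5 retrieval genes were higher and 4 lower, and 4 volume genes were lower. With control genes set to an equal median, which shifts the median of all genes by 0.24, 1 retrieval gene and 0 volume genes were lower. That setting called 5.31% of all genes higher and 1.12% lower. The 6 control genes measured were GAPDH, B2M, HPRT1, TBP, PPIA and PGK1, with differences from −0.53 (HPRT1) to 0.56 (B2M). None passed as reported. HPRT1 passed with the block (adjusted p = 0.025), PPIA with the methods' t-test (0.025) and B2M on the numbered arrays alone (0.0084). With the numbered arrays alone, 8 copper handling genes were higher and 4 lower, 1 regulator was lower, 5 retrieval genes were lower and 3 volume genes were lower. That fit called 9.36% of all genes higher and 8.78% lower. With the methods' t-test, 1 copper handling gene was higher, 1 retrieval gene was higher and 1 lower, and 0 volume genes were lower. The t-test called 2.17% of all genes higher and 1.67% lower. Leaving out 1 array gave 2 to 5 higher and 0 to 1 lower copper handling genes, 0 to 1 lower regulators, 1 to 3 higher and 1 to 3 lower retrieval genes, and 1 to 3 lower volume genes. Those fits called 2.92% to 5.73% of all genes higher and 2.19% to 4.98% lower. The cause was not tested. CCS, near 0, turned positive at 0.026 with cyclic loess, 0.23 with equal control genes, 0.0052 with quantile normalization repeated, and ran between −0.104 and 0.062 when 1 array was left out. AQP2 turned positive at 0.13 with equal control genes, 0.0068 with the numbered arrays alone, ran between −0.320 and 0.011 when 1 array was left out, and AQP9 turned positive at 0.062 and SFN at 0.073 with equal control genes. The ratios planned between the SLC31 genes, pumps and channel subunits were not run, since 9 of the 10 genes were not analysed here. The number of arrays, 3 a line, limits the precision.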
